A study of Homo sapiens with 12 samples.

Results

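The genes described here were 9 targets and partners of the NRF2 antioxidant programme: NQO1, HMOX1, GCLC, GCLM, TXNRD1, SRXN1, PGD, TKT and ME1. They were taken by symbol, and all 9 were listed in both count tables, of 28008 genes in the silencing table and 25435 in the overexpression table. The study asked, among other questions, whether MUC1-C, the transmembrane subunit of the MUC1 mucin, bears on redox balance and drug resistance in prostate cancer cells. RNA-seq of 12 libraries in 4 groups of 3 was analysed. In the silencing experiment, LNCaP-ER cells, a LNCaP prostate cancer line selected for resistance to the prostate cancer drug enzalutamide, carried a doxycycline (DOX)-inducible MUC1 shRNA in both groups, and were given 0.1% DMSO vehicle or 500 ng/ml DOX, for 7 days in the study's silencing assays. In the overexpression experiment, libraries labelled LNCaP were compared with libraries titled LNCaP shMUC1-C OE, called MUC1-C OE below. Their titles carry "sh", a usual prefix for a silencing hairpin, whereas their treatment label reads tetMUC1-C and the study's methods describe MUC1-C expressed from a CMV promoter vector. The label calls the controls wild-type, whereas the column headers call them vector. No libraries with DOX and a scrambled shRNA were analysed here, so an effect of DOX and one of the shRNA cannot be told apart. The cells were cultured in triplicate, and no source used here says more on how the replicates were made, so p-values measure the spread between these libraries.

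NRF2, encoded by NFE2L2, is a transcription factor that KEAP1 and the ubiquitin ligase scaffold CUL3 hold at a low level. Oxidants and electrophiles release it, and it then pairs with a small MAF protein at the antioxidant response element of its target genes. BACH1 competes for the same element and represses HMOX1 in particular. The targets make and recycle the thiols glutathione and thioredoxin, and PGD, TKT and ME1 belong to the pathways that supply the NADPH on which this recycling depends.

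Their positions are given on GRCh38 from RefSeq. Among the enzymes of detoxification and thiol chemistry, NQO1, a quinone reductase, lies at chr16:69709401-69726560 on the minus strand. HMOX1, heme oxygenase, lies at chr22:35381096-35394207 on the plus strand. GCLC and GCLM, the catalytic and modifier subunits of the enzyme that starts glutathione synthesis, lie at chr6:53497341-53545101 and chr1:93885199-93909430, both on the minus strand. TXNRD1, which reduces thioredoxin, lies at chr12:104215779-104350307 on the plus strand. SRXN1, sulfiredoxin, which restores overoxidised peroxiredoxins, lies at chr20:646615-653200 on the minus strand. PGD, the second dehydrogenase of the pentose phosphate pathway, lies at chr1:10399064-10420511 on the plus strand. TKT, transketolase of its non-oxidative branch, lies at chr3:53224712-53256022 on the minus strand. ME1, cytosolic malic enzyme, lies at chr6:83210402-83431051 on the minus strand.

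The core of the antioxidant response element, TGACNNNGC, was searched on both strands of RefSeq promoter windows (GRCh38.p14, 250 bases before to 50 bases after a transcript start). Of all 35116 windows, 10.9% held the core before the start and 13.3% held it anywhere. Windows were found for 8 of the 9 genes, HMOX1 being the one without an entry, and 5 of their 9 windows held the core before the start. These belonged to 4 genes, PGD, GCLM, ME1 and TXNRD1 (both of its starts). The matches before the start are shown 5′ to 3′ with 10 bases on each side, read on the strand that holds the core, which is in capitals, because NRF2 target genes are defined by this element.
PGD, chr1:10398853-10398881, minus strand: agcacctagaTGACATTGCcccggcgagg
GCLM, chr1:93909446-93909474, plus strand: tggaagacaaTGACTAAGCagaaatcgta
ME1, chr6:83431170-83431198, minus strand: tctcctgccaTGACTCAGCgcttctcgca
TXNRD1, first start, chr12:104215670-104215698, plus strand: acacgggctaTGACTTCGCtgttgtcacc
TXNRD1, second start, chr12:104286920-104286948, minus strand: agagtcagaaTGACAAAGCagaaatccac
The core began 201 bases before the start at PGD, 34 at GCLM, 137 at ME1, and 99 and 102 at the first and second starts of TXNRD1. The ME1 core also held TGANTCA, the AP-1 motif, and the others did not. ME1 and the first TXNRD1 window each held a further match at or past the start. A match is a description of these letters, and the windows of NQO1, GCLC, TKT and SRXN1 simply lacked the letters within this span.

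The libraries held 28045894 to 45807989 counts in the silencing experiment and 13806856 to 19208944 in the overexpression experiment, and the 9 genes took 0.171% to 0.185% and 0.110% to 0.115% of them. MUC1 was at 26, 10 and 13 counts in the vehicle libraries and at 3, 42 and 8 in the DOX libraries, and DOX replicate 2 was therefore not lower than the vehicle libraries, contrary to what its label implies. That library also had 11.2% of genes at 0, against 27.95% to 38.12% in the other libraries of its experiment. MUC1 rose from 1.47 ± 0.15 to 712 ± 79.8 CPM (counts scaled to a common library size with edgeR's TMM factors, mean ± SD, n = 3) in the MUC1-C OE libraries. Sums over marker lists, here and below, were scaled to the library total alone, without TMM factors. Over 8 prostate luminal and LNCaP markers, the summed level was 6617 to 8224 CPM in the LNCaP-ER libraries, 181 to 196 in the libraries labelled LNCaP and 66.0 to 70.8 in those labelled MUC1-C OE. KLK3 (prostate-specific antigen), KLK2 and FOLH1 were at 0 counts in all 3 MUC1-C OE libraries. The overexpression libraries thus lacked or nearly lacked markers that define LNCaP cells, and the part of this in the results below was not tested.

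**Figure D1:**
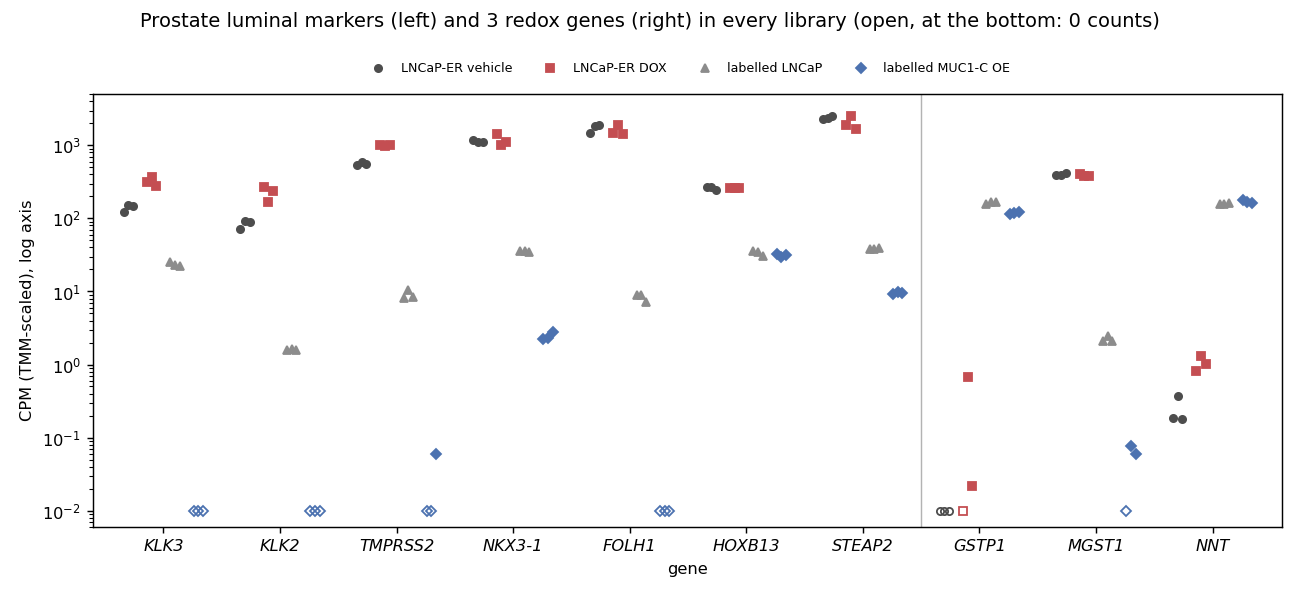
Level of 7 of the prostate luminal markers and 3 redox genes in every library, in TMM-scaled CPM on a log axis, with open symbols at the bottom for 0 counts. Each of the 7 markers sat higher in all 6 LNCaP-ER libraries than in all 6 libraries of the overexpression experiment, and GSTP1 and NNT showed the opposite order.

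In LNCaP-ER cells with vehicle, the order of the 9 genes per transcript length was read from the deposited TPM values (transcript level scaled by length and library total). TKT was highest at 134 ± 11.2 TPM (SD, n = 3), followed by TXNRD1 at 71.4 ± 10.3, PGD at 46.3 ± 6.38 and ME1 at 40.7 ± 4.29 TPM. NQO1 followed at 25.3 ± 9.56, SRXN1 at 19.7 ± 3.38, GCLC at 12.1 ± 1.16, GCLM at 10.5 ± 2.32 and HMOX1 at 6.52 ± 1.11 TPM. The ranges of neighbours overlapped for PGD and ME1, ME1 and NQO1, NQO1 and SRXN1, and GCLC and GCLM, so the order within those pairs was not resolved. With DOX, HMOX1 stood above GCLC and GCLM in the order, at 19.6 ± 3.48 against 14.9 ± 3.55 and 13.8 ± 3.57 TPM, but its range overlapped that of GCLC.

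On DOX against vehicle, HMOX1 and SRXN1 rose and TKT fell, and the other 6 genes did not pass the test. HMOX1 rose 2.07-fold, SRXN1 rose 1.35-fold and TKT was 1.28-fold lower (edgeR quasi-likelihood test, Benjamini-Hochberg adjusted p under 0.05 over 14683 genes). These 3 of 9 calls, 2 higher and 1 lower, stand beside a background of 27.3% of all genes called, 12.8% higher and 14.5% lower. The median log2 fold change of the 9 genes was -0.06, against -0.02 for all genes tested. In bulk RNA a lower level cannot be told apart from fewer cells with that level. Of the luminal markers, KLK3 (1.18), KLK2 (1.41) and TMPRSS2 (0.84) were also higher with DOX. The 6 blood and endothelial markers summed to 9.35 to 11.996 CPM with vehicle and 24.7 to 29.3 with DOX, with CD68 (1.72) the single one called of 2 tested. PTPRC and CD3E were at 0 in all vehicle libraries. In DOX replicates 1, 2 and 3, PTPRC was at 0.0023, 0.036 and 0 TPM and CD3E at 0, 0.24 and 0.026 TPM. The part of these markers in the results was not tested.

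HMOX1 was at 14.1, 14.9 and 13.3 CPM in the vehicle libraries and at 24.0, 27.1 and 36.5 CPM in the DOX libraries. Every DOX library lay above every vehicle library, with the largest spread within DOX. The log2 fold change was 1.05 (SE 0.17, adjusted p = 0.00306 by edgeR). Without DOX replicate 2, in which MUC1 was not reduced, it was 1.14 (adjusted p = 0.00183), and HMOX1 was called under each of the 16 alternatives tried.

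SRXN1 was at 80.5, 79.7 and 76.2 CPM with vehicle and at 108, 97.9 and 113 CPM with DOX. The groups did not overlap, and the log2 fold change was 0.43 (SE 0.09, adjusted p = 0.00942 by edgeR). Without DOX replicate 2 it was 0.52 (adjusted p = 0.00206), but without vehicle replicate 3 the call was lost (0.40, adjusted p = 0.0631), which left HMOX1 as the single gene called of the 9.

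TKT was at 569, 665 and 650 CPM with vehicle and at 506, 472 and 492 CPM with DOX. All DOX libraries were lower than all vehicle libraries, at a log2 fold change of -0.36 (SE 0.10, adjusted p = 0.0275 by edgeR). This call was not firm. It was lost when any library except vehicle replicate 1 was left out (adjusted p from 0.0551, without DOX replicate 2, to 0.116, without vehicle replicate 2) and when low genes were kept (0.0630).

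Among the genes that did not pass the test, GCLC and ME1 were lower in all 3 DOX libraries than in any vehicle library, a separation that 44.3% of all genes tested showed in either direction. GCLC was at 66.1, 74.5 and 73.0 CPM with vehicle and 64.5, 58.9 and 53.2 with DOX (log2 fold change -0.27, SE 0.10, adjusted p = 0.0801 by edgeR). ME1 was at 207, 228 and 224 CPM with vehicle and 165, 206 and 179 with DOX (-0.26, SE 0.10, adjusted p = 0.0909), and it was called lower once DOX replicate 2 was left out (-0.32, adjusted p = 0.0258). GCLM, the partner of GCLC, had overlapping groups at 82.8 ± 6.61 and 73.5 ± 4.26 CPM (-0.17, SE 0.10).

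NQO1, often used as the readout of NRF2 activity, was at 122, 83.1 and 84.6 CPM with vehicle and at 104, 68.5 and 106 CPM with DOX. The spread within each group exceeded the difference between them (log2 fold change -0.06, SE 0.20), and the sign turned when vehicle replicate 1 (0.14) or DOX replicate 2 (0.15) was left out. TXNRD1 was at 514 ± 8.51 CPM with vehicle and 500 ± 55.8 with DOX (-0.04, SE 0.11), and PGD at 174 ± 5.12 and 171 ± 6.54 (-0.03, SE 0.08). No difference was detectable for these genes at this spread.

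The deposited TPM values gave another direction for 7 of the 9 genes. On log2(TPM + 1), the median of all genes moved by 0.45 between vehicle and DOX, and RN7SK, a small nuclear RNA, held 35.2% to 37.7% of the TPM total with vehicle and 24.6% to 31.4% with DOX. On that scale TXNRD1 (0.50) and PGD (0.52) were called higher and TKT was at 0.20. With each library centred on its median, a setting chosen after seeing the data, HMOX1 (0.98) and SRXN1 (0.48) were called higher and TKT (-0.27) lower, as in the counts. The part of RN7SK in the shift was not tested.

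On MUC1-C OE against the libraries labelled LNCaP, 7 of the 9 genes were called, 4 higher and 3 lower, beside a background of 67.3% of 13836 genes, 33.2% higher and 34.1% lower. NQO1, HMOX1 and SRXN1 were lower, and PGD, GCLM, TKT and GCLC were higher. The share was close to the background, and the median log2 fold change was 0.01, against -0.01 for all genes tested. The groups did not overlap for these 7 genes, a separation seen for 70.3% of all genes tested.

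NQO1 was at 22.6, 20.7 and 21.2 CPM in the libraries labelled LNCaP and at 10.5, 9.10 and 8.79 CPM in the MUC1-C OE libraries. It was 2.28-fold lower (log2 fold change -1.19, SE 0.10, adjusted p = 6.46e-09 by edgeR), the single gene of the 9 that moved by more than 1 on the log2 scale here. HMOX1 was at 20.9, 25.9 and 19.1 CPM and then at 12.7, 13.1 and 13.7, or 1.66-fold lower (-0.73, SE 0.11, adjusted p = 1.12e-05). SRXN1 was at 58.3, 61.6 and 64.5 CPM and then at 44.8, 41.0 and 41.6, or 1.45-fold lower (-0.53, SE 0.06, adjusted p = 9.20e-07). Of the 8 luminal markers, 6 were lower in the MUC1-C OE libraries as well. The summed level of 6 fibroblast markers was 57.2 to 62.7 CPM in the libraries labelled LNCaP and 39.2 to 43.4 in the MUC1-C OE libraries. Of the 4 fibroblast markers tested, 3 were called lower and 1 higher (log2 fold change 2.21). The part of the luminal and fibroblast markers in these results was not tested.

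PGD was at 164, 174 and 170 CPM in the libraries labelled LNCaP and at 271, 261 and 266 CPM in the MUC1-C OE libraries. It was 1.57-fold higher (log2 fold change 0.65, SE 0.05, adjusted p = 1.01e-09 by edgeR). GCLM was at 22.2, 23.7 and 25.1 CPM and then at 32.3, 34.0 and 34.9, or 1.43-fold higher (0.51, SE 0.07, adjusted p = 8.19e-06). PGD and GCLM kept their calls under each alternative except a required log2 fold change of at least 1.

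TKT and GCLC differed little between these groups. TKT was at 351, 350 and 370 CPM and then at 393, 406 and 404 (log2 fold change 0.17, SE 0.04, adjusted p = 0.00259 by edgeR), and it was not called on library size alone (0.01, adjusted p = 0.781). GCLC was at 53.2, 53.5 and 54.1 CPM and then at 59.6, 59.0 and 58.5 (0.14, SE 0.06, adjusted p = 0.0334). Its call was lost without each of the 3 LNCaP replicates in turn (adjusted p 0.0762 to 0.0920) and with DESeq2 (0.0781), and its sign turned on library size alone (-0.01). TXNRD1 (310 ± 6.38 and 313 ± 6.78 CPM) and ME1 (47.9 ± 2.06 and 46.3 ± 1.20 CPM) were not called. On library size alone the median of all genes shifted by -0.15, and both were then called lower, TXNRD1 at -0.14 and ME1 at -0.20.

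**Figure D2:**
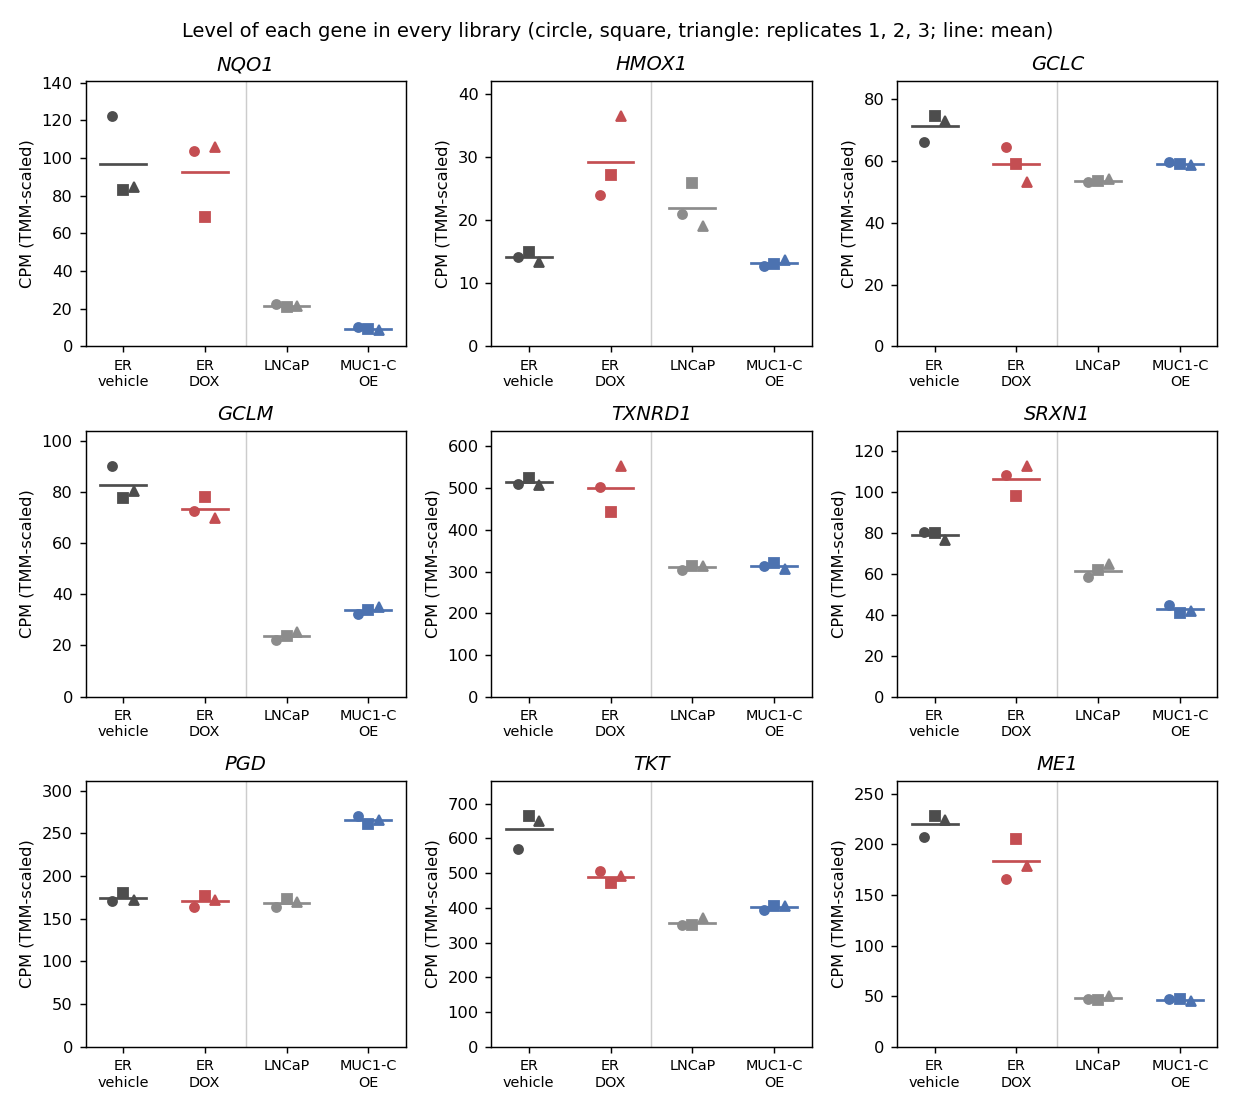
TMM-scaled CPM of each gene in every library, with the mean of each group as a line and a vertical line between the experiments, which were normalised separately. HMOX1 and SRXN1 were higher in all 3 DOX libraries than in the vehicle libraries and lower in all 3 MUC1-C OE libraries than in those labelled LNCaP.

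**Figure D3:**
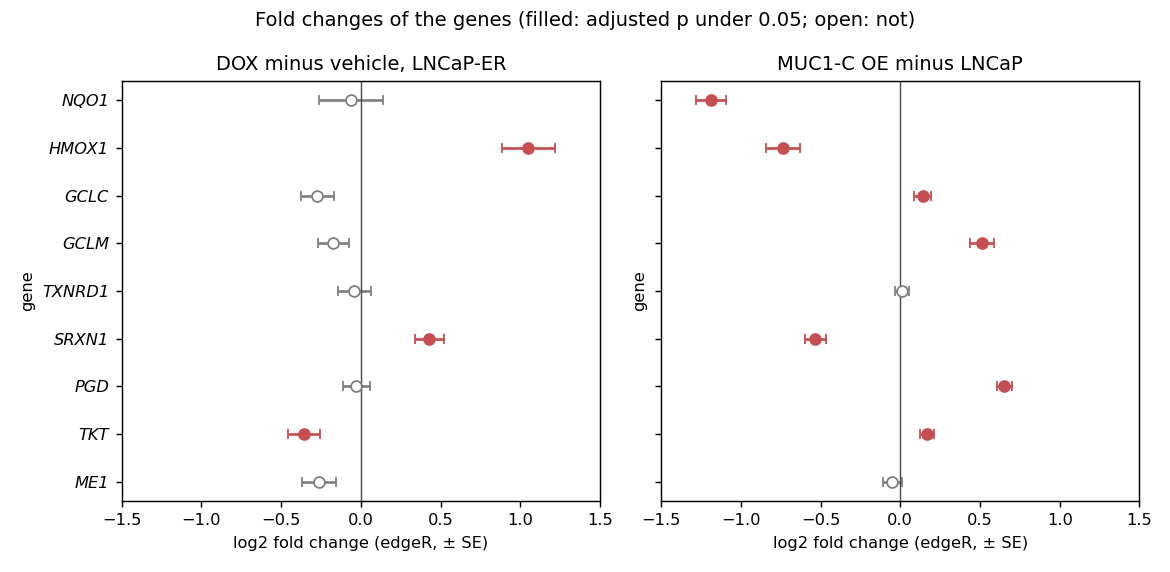
The log2 fold change (± SE, n = 3 a group) of each gene in both comparisons, filled where the adjusted p was under 0.05. HMOX1 was at 1.05 and -0.73, SRXN1 at 0.43 and -0.53, and TKT at -0.36 and 0.17.

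HMOX1, SRXN1 and TKT were called in both comparisons, each in opposite directions. The first and second were higher with DOX and lower with MUC1-C OE, and TKT was lower with DOX and higher with MUC1-C OE. Over all genes tested, 27.3% were called with DOX and 67.3% with MUC1-C OE, and the share called in both was not computed. Of redox genes described below, GLRX2, GSTK1, MGST3, PRDX6, IDH1 and NADK were called higher in both, and SESN3 and TRIM16L lower in both. GPX1, GPX8, SLC7A11, MTHFD2, TXNRD2, NFE2L1, NFE2L2 and SQSTM1 were called with opposite signs. The comparisons share no libraries, but they differ in cell line, vector and sequencing depth, and the difference between them was not tested. The remaining genes passed the test in at most 1 comparison: PGD, GCLM, NQO1 and GCLC in the overexpression experiment alone, and TXNRD1 and ME1 in neither.

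The control libraries of the experiments are given side by side, with no test, since each table was normalised by itself. NQO1 was at 96.7 ± 22.3 CPM in LNCaP-ER with vehicle and at 21.5 ± 0.99 CPM in the libraries labelled LNCaP. ME1 was at 220 ± 10.98 and 47.9 ± 2.06 CPM, and GCLM at 82.8 ± 6.61 and 23.7 ± 1.44. PGD was at nearly the same level, 174 ± 5.12 and 169 ± 4.93 CPM, and HMOX1 was at 14.1 ± 0.80 and 22.0 ± 3.52.

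With DOX, 5 of the 10 genes of the list of NFE2L2 and its regulators passed the test, 3 higher and 2 lower, beside 27.3% of all genes tested. NFE2L2 itself was at 115, 135 and 133 CPM with vehicle and at 93.1, 84.9 and 79.2 with DOX, a log2 fold change of -0.58 (SE 0.10, adjusted p = 0.00501 by edgeR). BACH1, the HMOX1 repressor, was at 71.7, 95.3 and 108 CPM with vehicle and 49.97, 55.5 and 43.8 with DOX (-0.88, SE 0.16, adjusted p = 0.00496). On this TMM-scaled CPM the groups did not overlap for either gene, as for 44.3% of all genes tested. In the deposited TPM they did overlap: NFE2L2 was at 24.2, 24.1 and 20.9 TPM with vehicle and 24.1, 27.8 and 17.6 with DOX, and BACH1 at 7.55, 8.502 and 8.56 with vehicle and 6.47, 9.11 and 4.87 with DOX. On filtered log2 TPM 6 of 9 tested genes of the list were called, all higher, and after centring on the library median 4 higher and 2 lower. SQSTM1, the autophagy receptor p62, which binds KEAP1, rose (0.74), as did NFE2L1 (0.57), a relative of NRF2, and MAFK (0.53), a small MAF partner. KEAP1 (0.20), CUL3 (0.21), BTRC (-0.05), MAFG (0.06) and MAFF (0.84, SE 0.68) did not pass the test. Without DOX replicate 2, 6 of the 10 were called, and 3 of the 10, 1 higher and 2 lower, without any 1 vehicle replicate or without DOX replicate 3.

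With MUC1-C OE, 7 of these 10 genes passed the test, 3 higher and 4 lower, a share near the 67.3% of all genes tested, of which 33.2% were higher and 34.1% lower. NFE2L2 was at 64.1, 73.6 and 71.3 CPM and then at 85.3, 85.3 and 86.0 CPM (log2 fold change 0.30, SE 0.06, adjusted p = 2.21e-04 by edgeR). CUL3 (0.60) and BTRC (0.19), of ubiquitin ligases that act on NRF2, were also higher. SQSTM1 (-0.87), MAFG (-0.61), MAFF (-1.04) and NFE2L1 (-0.25) were lower, and BACH1 (-0.10), MAFK (-0.11) and KEAP1 (0.07) were not called. NFE2L2, SQSTM1 and NFE2L1 were called in both comparisons, with opposite signs, beside 27.3% of all genes called with DOX and 67.3% with MUC1-C OE. The share of all genes called in both with opposite signs was not computed.

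Other genes of glutathione synthesis, recycling and use were called for 7 of 20 tested with DOX, 5 higher and 2 lower, beside 27.3% of all genes. SLC7A11, the cystine importer that feeds glutathione synthesis, was at 462, 674 and 718 CPM with vehicle and at 89.2, 267 and 122 with DOX (log2 fold change -1.95, SE 0.37, adjusted p = 0.00613 by edgeR). GPX8, a peroxidase of the endoplasmic reticulum, was the other gene that fell (-1.65). The glutathione transferases MGST3 (0.85) and GSTK1 (0.74), the glutaredoxin GLRX2 (0.80), GPX1 (0.54) and glutathione synthetase GSS (0.38) rose. Without DOX replicate 2, 10 of the 20 were called, and without vehicle replicate 3 or DOX replicate 3, 4. On filtered log2 TPM 11 of 19 were called, 9 of them higher.

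With MUC1-C OE, 18 of 23 genes of that list were called, 9 in each direction, beside 67.3% of all genes. SLC7A11 was at 11.97, 11.1 and 10.5 CPM in the libraries labelled LNCaP and at 312, 119 and 103 in the MUC1-C OE libraries (log2 fold change 3.99, SE 0.65, adjusted p = 0.00551 by edgeR), so replicate 1 stood apart within its group. GPX4, which reduces lipid hydroperoxides (0.96), and GPX8 (1.04) were higher, and GPX3, a secreted glutathione peroxidase, went from 72.1 ± 2.37 to 1.62 ± 0.47 CPM. GLRX2 (0.37), GSTK1 (0.37) and MGST3 (0.36) were higher as with DOX, whereas GPX1 (-0.19) was lower.

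Of the thioredoxin and peroxiredoxin genes, 3 of 18 were called with DOX, fewer than the 27.3% of all genes. TXNRD2, the mitochondrial counterpart of TXNRD1, rose (0.36), PRDX6 rose (0.49), and SESN3, a sestrin, went from 889 ± 103 to 326 ± 41.4 CPM (-1.45, SE 0.13). With library size alone 6 of the 18 were called, with the replicate block 6, without DOX replicate 2, 5, and without vehicle replicate 2, vehicle replicate 3 or DOX replicate 3, 1. On filtered log2 TPM 11 of 17 were called, 10 of them higher. With MUC1-C OE, 15 of 18 were called, 7 higher and 8 lower, beside 67.3% of all genes. PRDX1, a known NRF2 target, went from 405 ± 3.39 to 791 ± 10.98 CPM (0.96, SE 0.04). SESN2 rose by 1.68 and TXNIP, the thioredoxin inhibitor, by 1.45 on the log2 scale. TXNRD2 (-0.70) and SESN3 (-0.36) were lower and PRDX6 (0.51) was higher.

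The other genes of the pentose phosphate pathway and NADPH supply were called for 7 of 14 tested with DOX, 5 higher and 2 lower, beside 27.3% of all genes. The isocitrate dehydrogenase IDH1 (0.43) and the NAD kinase NADK (0.34) rose. The mitochondrial NAD kinase NADK2 was at 188 ± 3.92 CPM with vehicle and 121 ± 4.58 with DOX (log2 fold change -0.64, SE 0.08, adjusted p = 0.0013 by edgeR), and MTHFD2, of mitochondrial folate metabolism, fell (-1.33). NNT and ALDH1L1 passed the filter on low counts only through the DOX libraries, with at most 11 and 6 counts in a vehicle library, so their calls are no support for the list. With at least 10 counts asked of each library, 5 of 12 genes were called, 3 higher and 2 lower. Without vehicle replicate 3, 2 genes of this list were called, both lower, and with no filter 3 of 16.

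With MUC1-C OE, 12 of the 14 were called, 10 higher and 2 lower, beside 67.3% of all genes called and 33.2% called higher. The list's median log2 fold change was 0.28, against -0.01 for all genes tested. The transaldolase TALDO1 (0.48) and PGLS, the lactonase that acts just before PGD (0.38), were higher together with PGD and TKT. MTHFD1 (0.84), NADK (0.76), IDH2 (0.67), IDH1 (0.17) and MTHFD2 (1.24) were also higher, and TKTL1 (-0.81) and ME2 (-0.23) were lower. On library size alone 10 were called, 7 higher and 3 lower, and without LNCaP replicate 2 or LNCaP replicate 3, 9.

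Among genes of superoxide and hydrogen peroxide removal, 2 of 5 were called with DOX: SOD3, the secreted dismutase, fell (-0.73) and CCS, the copper chaperone of SOD1, rose (0.55), while catalase, CAT, was at 0.22 and not called. That count ranged from 0 to 3 on leaving out 1 library, with 0 called without vehicle replicate 2, DOX replicate 1 or DOX replicate 3. With DESeq2, with no filter and with the replicate block 1 of the 5 was called, with library size alone 3, and on filtered log2 TPM 3, all higher. With MUC1-C OE, SOD2 (0.42) and CAT (0.45) were the 2 called of 4, both higher, and SOD1 was at 0.07. Over all genes 27.3% and 67.3% were called in these comparisons. Of 22 other NRF2-linked detoxification and iron genes, TRIM16L (-0.51) was the 1 called with DOX, while EPHX1 (0.45, adjusted p = 0.0620) and SLC6A9 (-1.21, adjusted p = 0.0764) were not. Without DOX replicate 2, 6 genes of that list were called, and without vehicle replicate 2 or DOX replicate 1, 0. With library size alone 4 were called, with the replicate block 3, with DESeq2 2, and on filtered log2 TPM 13 of 18, all higher, against 4 after centring on the library median, 3 of them higher. With MUC1-C OE, 18 of 24 were called, 8 higher and 10 lower, beside 67.3% of all genes, TRIM16L (-0.78) and EPHX1 (1.104) among them. AKR1C1 and AKR1C2, aldo-keto reductases that are NRF2 targets, went from 3.50 ± 0.21 and 5.75 ± 0.73 CPM to between 0 and 2 counts in each MUC1-C OE library. They passed the filter on low counts only through the libraries labelled LNCaP, so their calls are no support for the list. These paralogs are near identical and the counting may have split their reads.

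**Figure D4:**
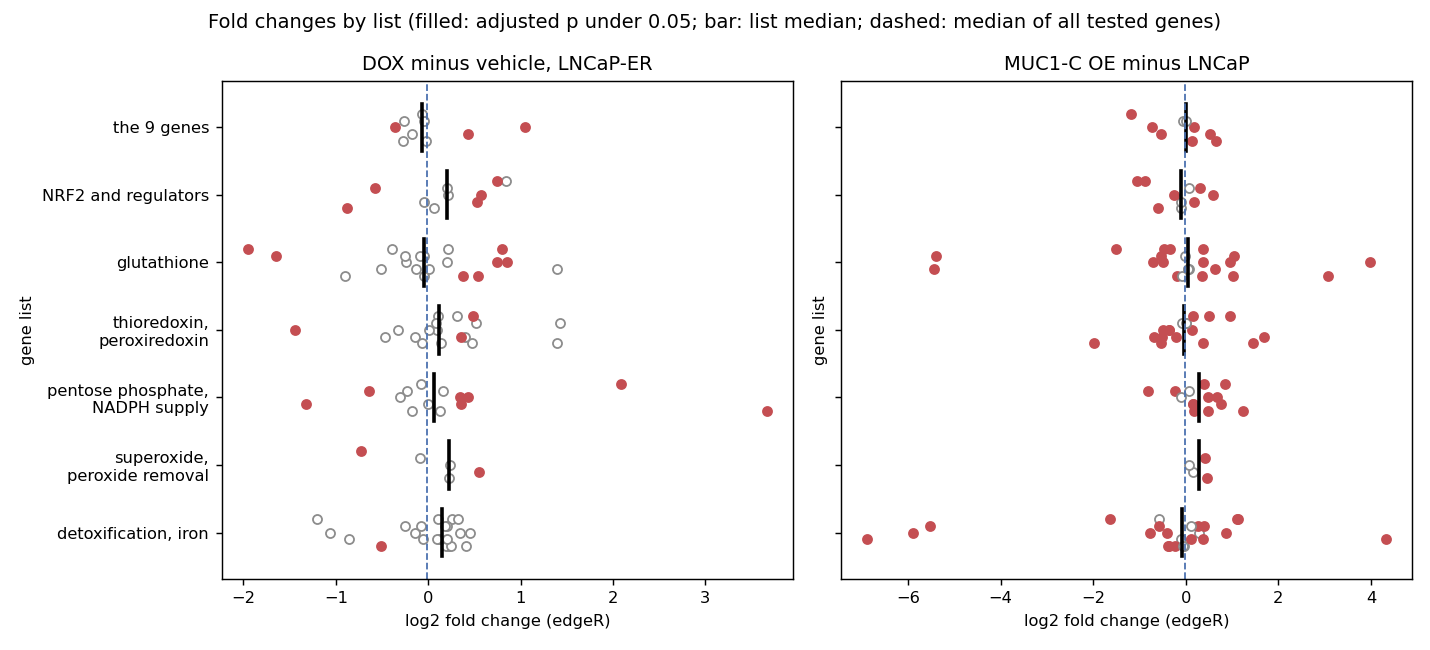
The log2 fold change of every tested gene by list in both comparisons, filled where the adjusted p was under 0.05, with list medians as bars and the median of all tested genes dashed. The pentose phosphate and NADPH list had its median at 0.28 with MUC1-C OE, and SLC7A11 lay at -1.95 with DOX and 3.99 with MUC1-C OE.

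The redox genes GSTP1, NNT and MGST1, chosen after their values were seen, differed in level between the experiments far more than any of the 9 genes. GSTP1, a glutathione transferase whose promoter is known to be silenced by methylation in LNCaP cells, was at 0 counts in each vehicle library, which allows up to 3 counts a library, and at 0, 20 and 1 counts in the DOX libraries, the 20 being in DOX replicate 2. It was at 159 to 170 CPM in the libraries labelled LNCaP and at 113 to 121 CPM in the MUC1-C OE libraries. NNT, the mitochondrial transhydrogenase that makes NADPH, was at 0.18 to 0.37 CPM in the vehicle libraries and at 157 to 164 CPM in those labelled LNCaP. MGST1, a microsomal glutathione transferase, was in the opposite order, at 389 to 422 CPM in the vehicle libraries, 2.07 to 2.43 CPM in those labelled LNCaP and 0 or 1 counts in each MUC1-C OE library. The tables were normalised separately and these differences were not tested.

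**Figure D5:**
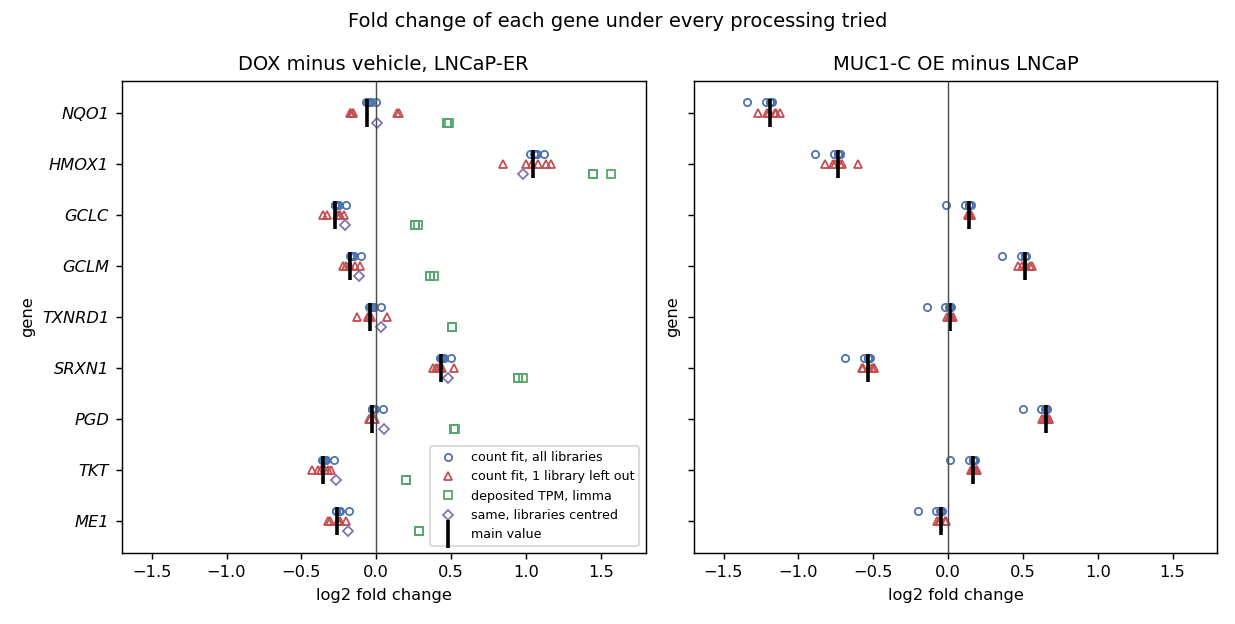
The log2 fold change of each gene under every processing tried, with the main value as a black bar. HMOX1 and SRXN1 stayed above 0 with DOX and below 0 with MUC1-C OE under every setting, while the uncentred TPM values lay above the count values for all 9 genes.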

How the data were processed

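Total RNA of 12 libraries was made into stranded mRNA libraries with the TruSeq kit. Per the labels, the authors aligned the reads with STAR to GRCh38 (hg38) and used DESeq2, and versions are not given in the sources used here. They deposited raw gene counts for both experiments and, for the silencing experiment, TPM values; the deposited TPM values are scaled to a fixed total in each library. The overexpression table held 12 columns of other cell lines, which were not used. Whether counting used strand is not stated, so antisense genes that overlap NQO1, GCLC and TXNRD1, and EID3 within TXNRD1 (0 to 55 counts), may share reads with them, and pseudogenes of PGD and SRXN1 may take some of theirs.

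Counts were tested with edgeR 4.0.16 in R 4.3.3 (filterByExpr, TMM scaling, robust quasi-likelihood test), separately per experiment, with Benjamini-Hochberg adjustment over all genes tested and a threshold of 0.05. The SE is the absolute log2 fold change divided by the root of the F statistic. TPM values were tested with limma 3.58.1 on log2(TPM + 1) and log2(TPM + 0.1), for genes with at least 1 TPM in 3 libraries, which understates changes of low genes. Alternatives were median-of-ratios and plain library-size scaling, keeping all genes, keeping genes with 10 or more counts in each library, DESeq2 1.42.0, a replicate block, a log2 fold change of at least 1, and each library left out in turn, which leaves 2 libraries in that group. The edgeR script was tested on simulated data. Replicate pairs all differed beyond counting noise, with chi-square values of 2.27 to 69.1 for each degree of freedom. With vehicle, the values were 51.8 and 51.4 for replicate 1 against 2 and 3, and 5.70 for 2 against 3. With DOX, they were 58.1 and 69.1 for replicate 2 against 1 and 3, and 26.9 for 1 against 3.

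The 9 genes and the gene lists were chosen with earlier results of these data known. Named are the 9 genes, MUC1, all genes of the NRF2 regulator list and, from each other list, the 3 with the smallest p in each comparison and those called in both. Some genes that this rule picks are not reported here. Other genes named were chosen after their values were seen. Motif searches used RefSeq promoter windows.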

Additional observations from a re-analysis of the deposited data

How the results depend on the processing

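The counts of called genes among the 9 moved with many settings. With DOX, 2 were called with no filter, both higher, and 4 on filtered log2 TPM, all higher. On log2(TPM + 1) without the filter, 2 were called with DOX, both higher. With MUC1-C OE, 6 were called with DESeq2 and with at least 10 counts in every library. On library size alone 7 were called there, 2 higher and 5 lower. With a log2 fold change of at least 1 required, 1 of the 9 genes was called in each comparison, and 988 of all genes with DOX and 1917 with MUC1-C OE. Leaving out 1 library at a time gave 1 to 3 called genes of the 9 and 2002 to 5243 of all genes with DOX, against 3 and 4006 with all libraries; the lowest counts came without vehicle replicate 3, and all genes also fell to 2200 without vehicle replicate 2 and to 2067 without DOX replicate 3. With MUC1-C OE the same gave 6 or 7 genes of the 9 and 8486 to 9512 of all genes. On library size alone, 2430 genes were higher and 1647 lower with DOX, against 1875 and 2131, and 3050 higher and 6388 lower with MUC1-C OE, against 4600 and 4712.

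On the TPM scale with pseudocount 1, filtered or not, the sign turned for NQO1 (0.47), GCLC (0.26), GCLM (0.36), TXNRD1 (0.50), PGD (0.52), TKT (0.20) and ME1 (0.28); with pseudocount 0.1 the values were 0.49, 0.28, 0.38, 0.51, 0.53, 0.20 and 0.29. After centring, NQO1 (0.0022), TXNRD1 (0.034) and PGD (0.049) remained above 0. On library size alone TXNRD1 (0.031) and PGD (0.048) turned positive with DOX, and GCLC (-0.014) and TXNRD1 (-0.14) negative with MUC1-C OE; TXNRD1 was also negative there with at least 10 counts in every library (-0.017). Over the libraries left out, NQO1 ranged from -0.17 to 0.15 and TXNRD1 from -0.13 to 0.074 with DOX, TXNRD1 from -0.0048 to 0.036 with MUC1-C OE, and MUC1 from -1.83 (without DOX replicate 2) to 0.62 with DOX, -0.087 without vehicle replicate 2. The cause of these turns was not tested.

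Replicate numbers did not pair the libraries: the deviations of same-numbered libraries correlated at 0.09, -0.003 and -0.07 with DOX and at -0.03, -0.15 and -0.04 with MUC1-C OE, and not every library correlated best with its own number. With the replicate block, 3 of the 9 genes were called with DOX and 6 with MUC1-C OE, GCLC (adjusted p = 0.0697) being the call lost, 4226 and 8965 of all genes were called, and MUC1 turned to -0.62 with DOX.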
